A study of Rattus norvegicus with 18 samples.

Results

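The integrin chains of synovial myeloid cells were read across OA and sham rats, with CD11b, the antigen used to sort the cells, as the reference gene. The members were chosen by gene symbol: Itgam (CD11b), Itgb2 (CD18), Itgax (CD11c), Itgal (CD11a), Itgad (CD11d), Itga4, Itgb1, Itgav, Itgb3 and Itgb5. Of these 10 symbols, 9 were found among the 30643 genes of both deposited tables. Itgad had no row under that symbol and is not analysed here.

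Male Sprague Dawley rats, 12 weeks old at surgery, had OA induced in the knee by transecting the anterior cruciate ligament and destabilising the medial meniscus, while sham rats had the joint opened only. Synovium, the tissue lining the joint, was digested 4 or 12 weeks later, and cells were taken with magnetic beads coated for CD11b/c, so the protein products of Itgam and Itgax were themselves the basis of the sort. At 4-weeks there were 5 OA and 5 sham libraries, each a pool of 4 rats, and at 12-weeks 4 of each, made from pools of 3 rats. Total RNA was sequenced after removal of ribosomal RNA. Values below are normalized reads: the authors' read counts per gene divided by a size factor for each library, set within each week, so levels are compared within a week only.

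Integrins are paired receptors of 1 alpha and 1 beta chain that join a cell to matrix, to other cells or to opsonised particles, and they must be switched on from inside the cell before they bind firmly. The CD18 family is the leukocyte branch: CD18 pairs with CD11b to form complement receptor 3, with CD11c to form complement receptor 4, and with CD11a to form LFA-1, a receptor for ICAM adhesion molecules. Itga4 and Itgb1 form VLA-4, which holds leukocytes to VCAM-1 and fibronectin, and Itgav pairs with Itgb3, Itgb5 or Itgb8 in receptors for vitronectin and for latent TGF-beta. In synovium these receptors are known from macrophages, from recruited monocytes and neutrophils, and, for the beta 1 and alpha v groups, from fibroblasts and vessels as well.

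The sequences just before the start of 3 of these genes are shown: the sort antigen CD11b, its close relative CD11c and Itgb5, the member whose OA and sham libraries did not overlap. They come from RefSeq on build GRCr8, are 250 bases long, run 5′ to 3′ on the coding strand and end at the base before the annotated start. Capitals mark the letters GAGGAA or its reverse complement TTCCTC, the core bound by PU.1 and other ETS factors, and the letters TGTGGT or ACCACA, the core bound by RUNX factors; both strands were searched and no match overlapped another. Itgam lies at chr1:192089342-192089591 on the + strand, Itgax at chr1:192149799-192150048 on the + strand and Itgb5 at chr11:80449374-80449623 on the - strand.
Itgam: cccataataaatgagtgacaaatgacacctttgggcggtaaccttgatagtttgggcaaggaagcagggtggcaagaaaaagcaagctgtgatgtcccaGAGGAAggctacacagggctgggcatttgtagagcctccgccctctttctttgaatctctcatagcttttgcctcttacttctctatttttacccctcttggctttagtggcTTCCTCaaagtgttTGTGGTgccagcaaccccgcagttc
Itgax: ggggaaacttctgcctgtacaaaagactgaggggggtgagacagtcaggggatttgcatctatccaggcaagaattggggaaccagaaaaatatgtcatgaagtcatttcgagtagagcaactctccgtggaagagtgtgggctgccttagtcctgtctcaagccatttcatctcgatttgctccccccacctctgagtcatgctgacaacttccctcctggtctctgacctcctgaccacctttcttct
Itgb5: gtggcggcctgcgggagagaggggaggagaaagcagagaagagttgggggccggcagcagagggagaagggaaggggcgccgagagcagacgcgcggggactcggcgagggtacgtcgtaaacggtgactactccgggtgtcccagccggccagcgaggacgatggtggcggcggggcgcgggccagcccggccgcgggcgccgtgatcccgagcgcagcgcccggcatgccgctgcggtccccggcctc
The Itgam sequence held the ETS letters 2 times, with first bases 151 and 39 bases before the start, and the RUNX letters once, 25 bases before the start. The ETS letters were present in 23.34% of all 33469 RefSeq windows of this length and the RUNX letters in 14.47%, so a match is common. The Itgax and Itgb5 windows held neither. Among the other members with a window, Itgb1 and Itgav each held the ETS letters once, 148 and 62 bases before the start. Itga4 held the RUNX letters once, 59 bases before it. In the windows present the matches were thus not confined to leukocyte chains. Itgb5 carried 33 CG dinucleotides at a GC content of 74.4%, against 3 at 48.4% in Itgam and 3 at 50.4% in Itgax, where the median of all windows was 5 at 51.2%. Itgb1 had 28 and Itgav 21 CG dinucleotides, and Itga4 had 6. A window was present for 6 of the 10 members, and Itgb2, Itgal, Itgad and Itgb3 had none. In that annotation Itgam, Itgax and Itgad are direct neighbours on chromosome 1, and the symbol Itgax is also listed as a synonym of Itgad. The build differs from Rnor_6.0, to which the authors aligned, and reads can be split among such close copies, so the Itgax row (ENSRNOG00000036703) is uncertain in that it may count CD11c, CD11d or some of both.

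Library depth ran from 4662344 to 17235069 recovered reads at 4-weeks and from 10976114 to 18080503 at 12-weeks, and each member had between 114 and 14807 reads in every library. Sham replicate 3 at 4-weeks had the fewest reads and the lowest value of 6 of the 9 members. Its namesake at 12-weeks, a pool of other rats, was also lowest in 6 of 9. The macrophage label was checked on 14 marker genes, all present in every library: Csf1r, the receptor for the macrophage growth factor CSF1, ran from 20784 to 28192 normalized reads at 4-weeks and from 25265 to 36140 at 12-weeks. Other cell types were also present. The 11 fibroblast markers in the table summed to 54154 to 122024 normalized reads at 4-weeks and 67414 to 121606 at 12-weeks, and the endothelial gene Cdh5 ran from 4447 to 7378 across both weeks. In such bulk samples, fewer cells of a type and less RNA per cell cannot be told apart.

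No integrin chain passed the call of the study (adjusted p under 0.05 and a log2 fold change of at least 0.5) at either week in limma with Benjamini-Hochberg adjustment over all genes tested. CD11b itself had near-equal means in OA and sham at both weeks. At 4-weeks Itgal and Itgb5 were higher in OA at an unadjusted p under 0.05, and at 12-weeks Itgav was, by 1.33-fold, 1.21-fold and 1.23-fold. The share of all genes called by limma was 0 percent at both weeks (0 of 14861 and 0 of 14666), while edgeR also called 0 at both and DESeq2 called 0.195% (29 genes) and 0.675% (99 genes), none of them a member.

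At an unadjusted p under 0.05 in limma, 2 of 9 members passed at 4-weeks, where 7.92% of all genes did (1177). In edgeR 3 of 9 members passed at that week, where 1202 genes did. At 12-weeks 1 of 9 members passed in limma, where 12.4% of all genes did (1814). In edgeR 1 of 9 members passed there too, where 1833 genes did. The lowest adjusted p among the members in limma was 0.567 at 4-weeks and 0.358 at 12-weeks. The median log2 fold change of the members was 0.05 at 4-weeks, beside 0.03 over all genes, and 0.21 at 12-weeks, beside -0.01 over all genes. At 12-weeks 8 of 9 members had a positive log2 fold change and Itga4 a negative one, but these chains share libraries and partners and are not independent of each other.

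**Figure D1:**
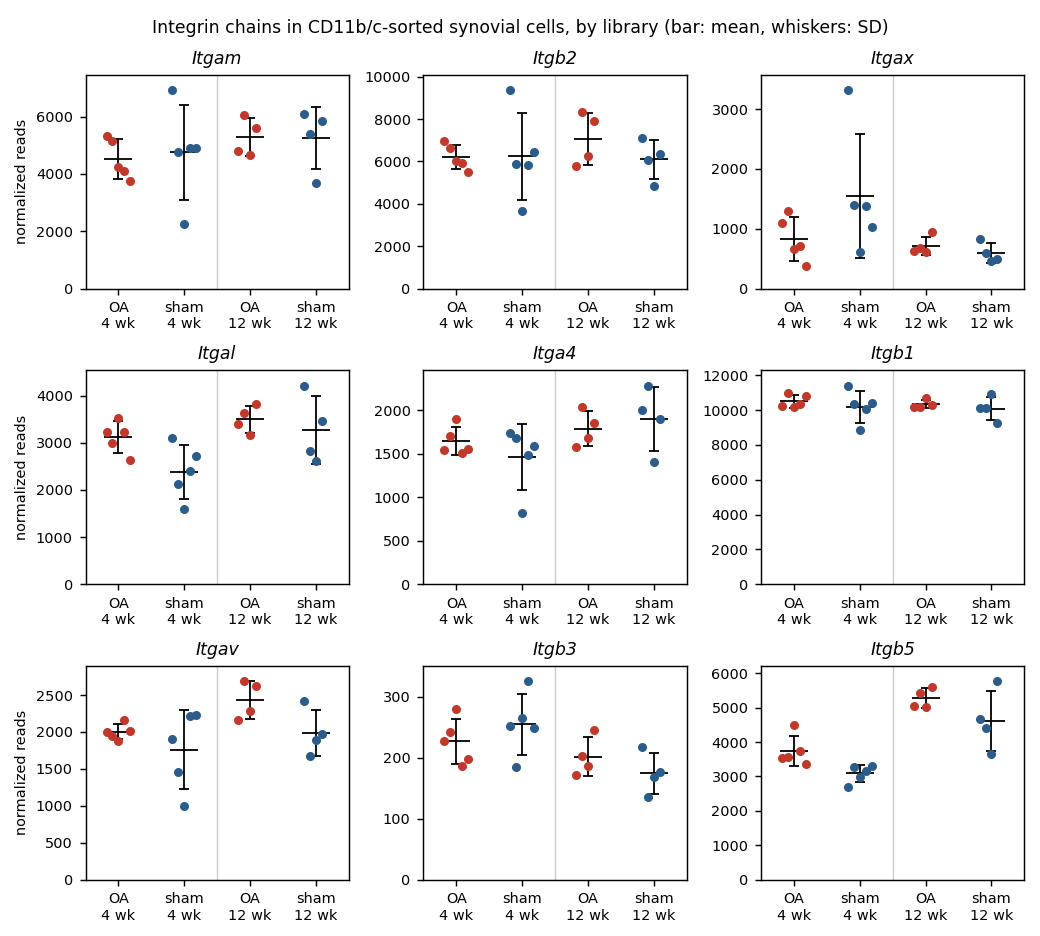
Normalized reads (vertical axes, linear from 0) of the 9 integrin chains in each library of the OA (red) and sham (blue) groups at 4 and 12 weeks; points are libraries, bars are means and whiskers are SD. Itgb5 at 4 weeks is the only panel and week in which no OA library overlaps a sham library, and 1 sham library at 4 weeks carries 3313 normalized reads of Itgax.

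Itgam, the alpha chain of complement receptor 3, had 5339, 5145, 4246, 4116 and 3745 normalized reads in the 5 OA libraries at 4-weeks. The 5 sham libraries had 6917, 4764, 2270, 4893 and 4918. The sham group held both the highest and the lowest library, and all OA values lay between them. The log2 fold change was -0.00 (95% confidence interval -0.51 to 0.51, adjusted p = 0.999 in limma), so a change of up to 1.43-fold either way was not resolved. Without sham replicate 3 it was -0.25 (SE 0.13, adjusted p = 0.536).
At 12-weeks Itgam had 4799, 6051, 4651 and 5612 normalized reads in OA and 6104, 5395, 3700 and 5862 in sham. The groups overlapped almost wholly, with means of 5278 and 5265. The log2 fold change was 0.02 (95% confidence interval -0.32 to 0.36, adjusted p = 0.959 in limma), and it was -0.14 without sham replicate 3 (adjusted p = 0.571).

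Itgb2 encodes CD18, without which none of the CD11 chains reaches the cell surface. Its 4-week values were 6955, 6650, 6006, 5938 and 5492 normalized reads in OA and 9353, 5875, 3672, 5849 and 6452 in sham. As with Itgam, the OA libraries sat inside the range of the sham libraries (log2 fold change 0.05, 95% confidence interval -0.36 to 0.47, adjusted p = 0.947 in limma). At 12-weeks the values were 5798, 8342, 6280 and 7888 in OA and 7084, 6084, 4865 and 6338 in sham. The 2 highest libraries were OA, but the groups overlapped and the log2 fold change of 0.21 (SE 0.14) had an adjusted p of 0.542 in limma.

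Itgax was the member that varied most between libraries. At 4-weeks it had 1092, 1294, 662, 716 and 381 normalized reads in OA and 3313, 1403, 617, 1381 and 1031 in sham, an 8.70-fold range over the 10 libraries. OA replicate 5 was lowest and sham replicate 1 highest, and the groups overlapped. The log2 fold change was -0.80 (SE 0.41, unadjusted p = 0.0728, adjusted p = 0.648 in limma), and the exact permutation test (two-sided) gave p = 0.167. The unadjusted p was under 0.05 in 7 of 21 alternative settings, with adjusted p from 0.351 to 0.896 over all 21. Without sham replicate 1 the log2 fold change was -0.47 (adjusted p = 0.608), and without sham replicate 3 it was -1.07 (adjusted p = 0.388). The same sham replicate 1 also had the most Spp1, which encodes osteopontin, at 24590 normalized reads, while the other 9 libraries of 4-weeks ran from 1695 to 6324. The 8 dendritic cell markers summed to 1848 to 2248 normalized reads in OA and 1620 to 2432 in sham, and the 7 osteoclast markers in the table to 1971 to 3343 and 2344 to 5423. Of the osteoclast markers, Ocstamp was lower in OA without overlap, at 4.34 to 11.4 normalized reads against 16.2 to 40.5 in sham. The others overlapped, with Acp5 at 880 to 1462 and 852 to 1824 and Ctsk at 517 to 1068 and 772 to 2253. The part of dendritic cells and osteoclasts in the Itgax values was not tested.
At 12-weeks Itgax had 625, 678, 608 and 939 normalized reads in OA and 824, 590, 469 and 499 in sham. The groups overlapped and the mean was higher in OA (713 ± 154, SD, n = 4) than in sham (596 ± 161, SD, n = 4), with a log2 fold change of 0.27 (SE 0.19, adjusted p = 0.55 in limma). It was 0.13 without OA replicate 4 (adjusted p = 0.897), 0.17 without sham replicate 3 (adjusted p = 0.717) and 0.44 without sham replicate 1 (unadjusted p = 0.0190, adjusted p = 0.514), and 0.09 with array weights (adjusted p = 0.840).

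Itgal, the alpha chain of LFA-1, was 1 of 2 members with an unadjusted p under 0.05 in limma at 4-weeks. Its OA libraries had 3220, 2987, 3532, 3222 and 2628 normalized reads, and its sham libraries 3101, 2118, 1601, 2412 and 2714. The 3 highest libraries were OA, and OA replicates 2 and 5 fell among the sham values. The log2 fold change was 0.41 (SE 0.15, adjusted p = 0.578 in limma), and the exact permutation test gave p = 0.0397, where the smallest p for 5 against 5 libraries is 0.00794. The unadjusted p stayed under 0.05 in 20 of 21 alternative settings and was 0.0509 without OA replicate 3. Without sham replicate 3 the log2 fold change was 0.28.
Itgal is also a lymphocyte chain. The 13 T and NK cell markers in the table summed to 7638 to 9684 normalized reads in OA and 7188 to 8283 in sham at 4-weeks, of which Cd4, also made by rat macrophages, gave 7387 to 9398 and 6670 to 8062. The T cell receptor component Cd3e had 0 to 6.93 normalized reads in OA and at most 32.5 in sham, while the T cell kinase Lck had 85.6 to 115 and 104 to 167 and the T and NK cell receptor Cd2 had 44.4 to 54.2 and 43.3 to 113. The 11 neutrophil markers summed to 12511 and 14434 normalized reads in OA replicates 1 and 3, beside 1097 to 4809 in the other 8 libraries. OA replicate 3 also had the highest Itgal, Itga4 and Itgb5. OA replicate 1 did not, at 3220, 1542 and 3541 normalized reads, each inside the range of the other OA libraries. The part of T cells, NK cells and neutrophils was not tested.
At 12-weeks Itgal had 3401, 3643, 3156 and 3817 normalized reads in OA and 4208, 2824, 2616 and 3456 in sham. A sham library was highest and the log2 fold change was 0.12 (SE 0.14, adjusted p = 0.732 in limma). It was 0.25 without sham replicate 1 (unadjusted p = 0.0465, adjusted p = 0.552) and 0.02 without sham replicate 3 (adjusted p = 0.959).

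Itga4 and Itgb1, the chains of VLA-4, differed little between OA and sham. Itga4 ran from 1508 to 1893 normalized reads in OA and from 812 to 1736 in sham at 4-weeks, where 4 of the 5 sham libraries lay between 1483 and 1736 and sham replicate 3 alone was at 812. Its log2 fold change of 0.21 (SE 0.18, adjusted p = 0.758 in limma) was 0.01 without that library. At 12-weeks Itga4 ran from 1578 to 2033 in OA and from 1399 to 2277 in sham (log2 fold change -0.07, SE 0.14, adjusted p = 0.851).
Itgb1, the partner of most matrix-binding alpha chains, was the steadiest member. It ran from 8827 to 11387 normalized reads over the 10 libraries of 4-weeks (coefficient of variation 6.56%) and from 9246 to 10904 over the 8 of 12-weeks (4.77%). Its log2 fold changes were 0.05 (95% confidence interval -0.14 to 0.23) and 0.04 (-0.13 to 0.20), the narrowest intervals among the members.

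Itgb5 was the only member whose OA and sham libraries did not overlap. Itgb5 pairs with Itgav in a vitronectin receptor through which phagocytes also take up dying cells. At 4-weeks it had 3541, 3570, 4487, 3745 and 3375 normalized reads in OA and 2688, 3276, 2989, 3171 and 3312 in sham. All 5 OA values exceeded the sham values, by a margin of 3375 against 3312 at the nearest pair. The log2 fold change was 0.27 (SE 0.09, fold 1.21), the unadjusted p 0.0121 and the adjusted p 0.567 in limma, and the exact permutation p was 0.00794, the smallest it can give. The unadjusted p was under 0.05 in all 21 alternative settings run at this week, with adjusted p from 0.259 to 0.873. For 1 of 9 members the groups did not overlap at 4-weeks, beside 1.87% of all genes (278). At 12-weeks this held for 0 of 9 members, beside 6.29% of all genes (922).
At 12-weeks Itgb5 had 5048, 5439, 5019 and 5607 normalized reads in OA and 4665, 4401, 3655 and 5762 in sham. The OA libraries were above 3 of the 4 sham libraries and below sham replicate 4 (log2 fold change 0.21, SE 0.12, adjusted p = 0.488 in limma). It rested on single sham libraries: without sham replicate 3 it was 0.10 (unadjusted p = 0.311, adjusted p = 0.669), and without sham replicate 4 it was 0.32 (unadjusted p = 0.00817, adjusted p = 0.279).

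Itgav, the alpha chain shared by the vitronectin receptors, had 2161, 2684, 2282 and 2618 normalized reads in OA and 2415, 1671, 1891 and 1969 in sham at 12-weeks. The 4 OA libraries were above 3 of the sham libraries, and sham replicate 1 fell among them. The log2 fold change was 0.30 (SE 0.11, fold 1.23), the unadjusted p 0.0241 and the adjusted p 0.358 in limma, and the exact permutation test gave p = 0.0857, where 4 against 4 libraries cannot go below 0.0286. The unadjusted p was under 0.05 in 13 of 17 alternative settings and was 0.0708, 0.0629 and 0.0712 without OA replicate 2, OA replicate 4 and sham replicate 2, and 0.105 with array weights. At 4-weeks Itgav ran from 1884 to 2158 in OA and from 991 to 2228 in sham (log2 fold change 0.25, SE 0.19, adjusted p = 0.737), and the log2 fold change was 0.05 without sham replicate 3.
Fibroblasts make both chains. The fibroblast markers summed to 80289 to 121236 normalized reads in OA and 54154 to 122024 in sham at 4-weeks, and to 93786 to 121606 and 67414 to 100397 at 12-weeks, with higher medians in OA at both weeks (94842 against 67420, and 101326 against 72007). Most of these sums was the collagen gene Col3a1, at 45742 to 77964 in OA and 33811 to 75354 in sham at 4-weeks, and 55142 to 70359 and 36073 to 58083 at 12-weeks. Other fibroblast markers went both ways at 12-weeks. Fap had 1413 to 1658 normalized reads in OA and 529 to 1183 in sham, and Thy1 had 429 to 684 and 606 to 1168. The part of fibroblasts in Itgb5 and Itgav was not tested.

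Itgb3, the other beta chain of the vitronectin receptors and a marker of platelets and osteoclasts, was the member with fewest reads. It ran from 187 to 279 normalized reads in OA and from 185 to 325 in sham at 4-weeks (log2 fold change -0.16, SE 0.15, adjusted p = 0.773 in limma), and from 172 to 246 and 136 to 218 at 12-weeks (0.22, SE 0.16, adjusted p = 0.572). The groups overlapped at both weeks. At 12-weeks the osteoclast markers summed to 1845 to 2824 normalized reads in OA and 1110 to 1604 in sham, without overlap. Most of that sum was Acp5 (982 to 1420 and 529 to 662) and Ctsk (670 to 1024 and 490 to 617). The other osteoclast markers in the table overlapped, with Ocstamp at 3.22 to 19.3 and 0 to 12.8 and Calcr at 11.2 to 12.2 and 7.63 to 14.6. The 7 platelet and megakaryocyte markers in the table summed to 3351 to 3974 in OA and 2848 to 4037 in sham at 12-weeks. Most of that sum was Pf4 (3218 to 3845 and 2725 to 3872). The platelet glycoprotein Gp9 ran from 57.9 to 70.5 in OA and from 54.4 to 75.8 in sham. Another, Gp1ba, ran lower in OA, at 18.2 to 24.4 against 24.1 to 29.3, with overlap. The part of osteoclasts and platelets in Itgb3 was not tested.

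**Figure D2:**
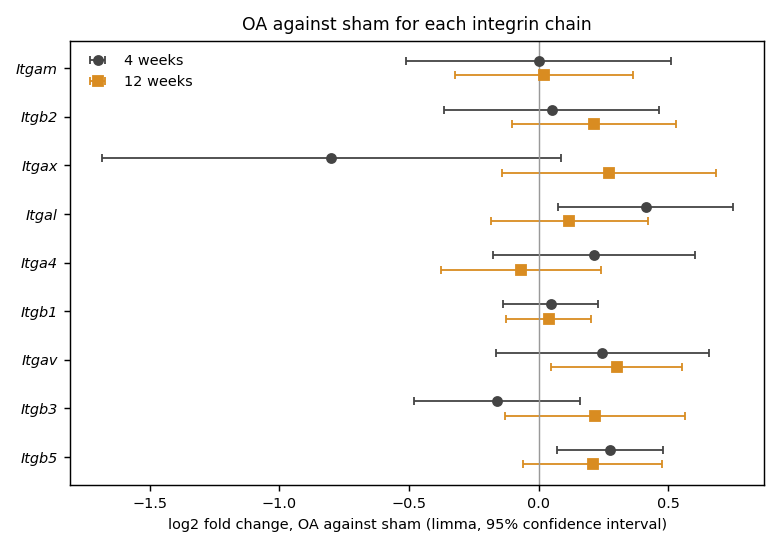
Log2 fold change of OA against sham (horizontal axis) for each integrin chain at 4 weeks (grey circles) and 12 weeks (orange squares), with 95% confidence intervals from limma; 0 is no difference. The intervals of Itgal and Itgb5 at 4 weeks and Itgav at 12 weeks lie above 0 before adjustment, and Itgax at 4 weeks has the widest interval (-1.69 to 0.09).

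Whether the OA effect changed between weeks was tested as the difference of the OA effects on log2 CPM over all 18 libraries, in limma. Itgax was the 1 of 9 members with an unadjusted p under 0.05, where 3.25% of the 14766 genes tested had one. Its OA effect was -0.82 at 4-weeks and 0.28 at 12-weeks on the log2 CPM scale, a difference of 1.10 (SE 0.52, unadjusted p = 0.0468, adjusted p = 0.948 in limma). Leaving out single libraries moved that difference between 0.78 and 1.36, with unadjusted p from 0.0109 to 0.0958. Itgb3 came next, at 0.40 (SE 0.23, unadjusted p = 0.0914). For Itgb5 the OA effects of the 2 weeks were 0.25 and 0.22, a difference of -0.03 (SE 0.15).

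Ratios between chains were then taken within each library, for 9 pairs at 2 weeks. Each was of an alpha chain to a beta partner, or of an alpha chain to Itgam, with which it shares Itgb2. These 18 tests were chosen after the values were seen, and none had an adjusted p under 0.05. The ratio of Itgam to Itgb2 was steady, with a 1.35-fold range over the 10 libraries of 4-weeks where Itgam alone had a 3.05-fold range. It was 0.725 ± 0.043 (SD, n = 5) in OA and 0.753 ± 0.085 (n = 5) in sham.
For LFA-1 the ratio of Itgal to Itgb2 at 4-weeks was 0.463, 0.449, 0.588, 0.543 and 0.479 in OA. In sham it was 0.331, 0.360, 0.436, 0.412 and 0.421. All 5 OA libraries were above all 5 sham libraries (1.29-fold, exact permutation p = 0.00794, adjusted p = 0.143 over the 18 tests). At 12-weeks the same ratio was 0.502 ± 0.063 (SD, n = 4) in OA and 0.535 ± 0.054 (n = 4) in sham, with overlap (exact permutation p = 0.457).
The ratio of Itgax to Itgb2 at 4-weeks was 0.157, 0.195, 0.110, 0.121 and 0.0693 in OA and 0.354, 0.239, 0.168, 0.236 and 0.160 in sham. The 3 highest libraries were sham, with overlap below them (exact permutation p = 0.0317, adjusted p = 0.179). At 12-weeks it was 0.101 ± 0.016 (SD, n = 4) and 0.0971 ± 0.0154 (n = 4), and the exact permutation p was 0.686. The ratio of Itgam to Itgb2 at 12-weeks was 0.751 ± 0.052 in OA and 0.858 ± 0.070 in sham (n = 4 each, exact permutation p = 0.0571, adjusted p = 0.206).

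**Figure D3:**
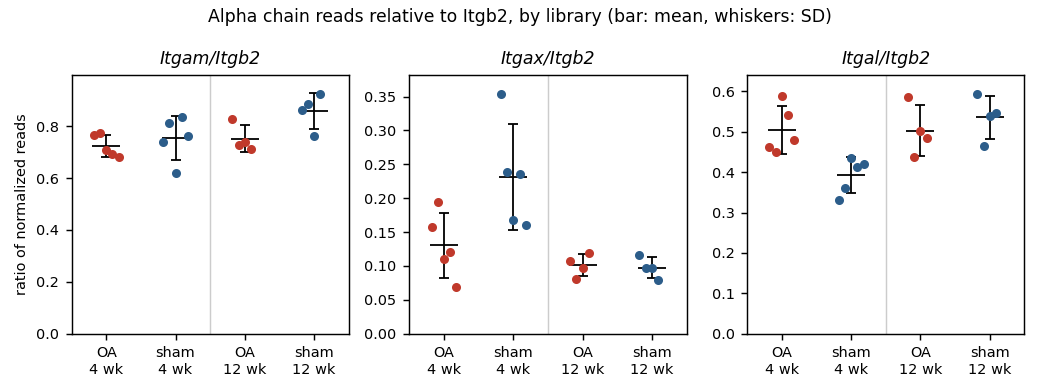
Ratio of the normalized reads of Itgam, Itgax and Itgal to those of Itgb2 (vertical axes, linear from 0) in each OA (red) and sham (blue) library at 4 and 12 weeks; bars are means and whiskers are SD. For Itgal at 4 weeks the OA libraries (0.449 to 0.588) lie above the sham libraries (0.331 to 0.436), and at 12 weeks the groups overlap.

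The levels of the chains were then compared with that of Itgam across libraries. On the log2 scale Pearson's r of Itgam and Itgb2 was 0.966 over the 10 libraries of 4-weeks and Spearman's rho was 0.891 (permutation p = 8e-05 and 0.00124, adjusted p = 0.00128 and 0.0198 over 16 relations). Without sham replicates 1 and 3, the 2 libraries farthest from the Itgam median, r was 0.817. Over the 8 libraries of 12-weeks r was 0.831 and rho 0.810 (exact permutation p = 0.0120 and 0.0218, adjusted p = 0.05 and 0.0871), and r was 0.680 without the 2 farthest. At that week Itga4 and Itgal had correlations with Itgam of the same size as Itgb2. Itga4 had r = 0.840 and rho = 0.714 (exact permutation p = 0.0125 and 0.0576, adjusted p = 0.05 and 0.154), and r was 0.569 without the 2 farthest. Itgal had r = 0.781 and rho = 0.857 (exact permutation p = 0.0271 and 0.0107, adjusted p = 0.0620 and 0.0669), and r was 0.510 without them.
Itgax and Itgam had r = 0.755 and rho = 0.770 at 4-weeks (permutation p = 0.0110 and 0.0125, adjusted p = 0.05 and 0.0669), and r was 0.888 without the same 2 libraries. The 4-week relations of Itgam to Itgal, Itga4, Itgb1 and Itgav had r from 0.660 to 0.830 but rested on those 2 libraries, since r fell to between -0.15 and -0.04 without them. Itgb5 and Itgb3 had r of -0.09 and 0.01 with Itgam at 4-weeks (permutation p = 0.754 and 0.977). At 12-weeks Itgb5 had r = 0.717 and rho = 0.452 (exact permutation p = 0.0786 and 0.267), and r was 0.208 without the 2 farthest libraries. Itgb3 had r = 0.384 at that week (exact permutation p = 0.360). Itgb1 had r = 0.830 with Itgam at 4-weeks and -0.704 at 12-weeks, where r was -0.265 without the 2 farthest libraries.
Of the 16 relations, 1 had an adjusted p under 0.05, that of Itgb2 at 4-weeks.

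**Figure D4:**
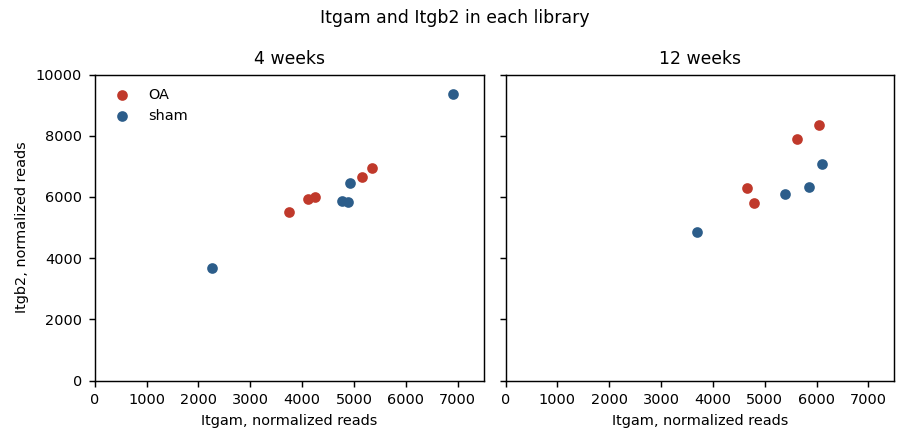
Normalized reads of Itgam (horizontal axes) and Itgb2 (vertical axes) in each OA (red) and sham (blue) library at 4 weeks (left, n = 10) and 12 weeks (right, n = 8), all axes linear from 0. OA and sham libraries lie along the same rising band at 4 weeks, with sham replicate 3 lowest (2270 and 3672) and sham replicate 1 highest (6917 and 9353).

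Ranked by the lower of the 2 weekly correlations with Itgam among 14419 genes, the nearest genes were Prkcd (protein kinase C delta, r = 0.962 and 0.968), Nsmaf (0.963 and 0.938), Fermt3 (kindlin-3, which binds integrin beta chains in blood cells, 0.930 and 0.927), Ciita (the activator of MHC class II genes, 0.919 and 0.915) and Cd68 (a lysosomal macrophage protein, 0.910 and 0.936). All points share libraries and scaling, so these values are descriptions. Itgb2 ranked 70, Itga4 112, Itgal 599 and Itgax 992. The 5 nearest genes had log2 fold changes of OA against sham between -0.09 and 0.08 at both weeks.

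Other integrin chains were read from lists of 12 alpha and 4 beta genes outside the members. At 4-weeks 12 alpha and 3 beta chains could be tested, and none was called. Of the alpha chains, 1 was higher (Itga9) and 1 lower (Itga7) in OA at an unadjusted p under 0.05, and of the beta chains 1 was higher (Itgb8). At 12-weeks 2 alpha chains were higher and 2 lower, and 1 beta chain was higher and 1 lower. Over all genes, 7.92% had an unadjusted p under 0.05 at 4-weeks and 12.4% at 12-weeks.
Itga9, which pairs with Itgb1 in a receptor for tenascin-C and osteopontin, had 1272, 1261, 1398, 1454 and 1463 normalized reads in OA and 908, 1098, 852, 1188 and 1382 in sham at 4-weeks. Sham replicate 5 fell among the OA values (log2 fold change 0.35, SE 0.12, adjusted p = 0.57 in limma). At 12-weeks it had 1641, 1607, 1718 and 1830 in OA and 1319, 1181, 1348 and 1522 in sham. The groups did not overlap (log2 fold change 0.34, SE 0.08, unadjusted p = 0.00175, adjusted p = 0.265).
Itgb8, the beta chain that with Itgav activates latent TGF-beta, had 201, 189, 241 and 273 normalized reads in OA and 142, 63.6, 178 and 103 in sham at 12-weeks. All 4 OA values exceeded the sham values, and the log2 fold change was 0.97 (SE 0.27, unadjusted p = 0.00515, adjusted p = 0.278 in limma). At 4-weeks it had 87.9 ± 18.1 (SD, n = 5) and 66.0 ± 17.3 (n = 5) normalized reads, with a log2 fold change of 0.42 (SE 0.19, adjusted p = 0.619).
Of the matrix and basement membrane chains, Itga11, a fibroblast collagen receptor, had a log2 fold change of 0.45 (SE 0.13, adjusted p = 0.284 in limma) at 12-weeks. Itga7, a laminin receptor of muscle, had -0.22 (SE 0.09, adjusted p = 0.595) at 4-weeks and -0.38 (SE 0.15, adjusted p = 0.37) at 12-weeks. The 9 skeletal muscle markers in the table went the other way at 12-weeks. They summed to 1208 to 2070 normalized reads in OA and 862 to 1088 in sham, without overlap. At 4-weeks the sums overlapped (360 to 660 and 340 to 877). The part of muscle in Itga7 was not tested. Itgb4, the beta chain of the laminin receptor of epithelia and nerve sheath, had 7237 ± 958 (SD, n = 4) normalized reads in OA and 9321 ± 1674 (n = 4) in sham at 12-weeks (log2 fold change -0.36, SE 0.13, adjusted p = 0.356).

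**Figure D5:**
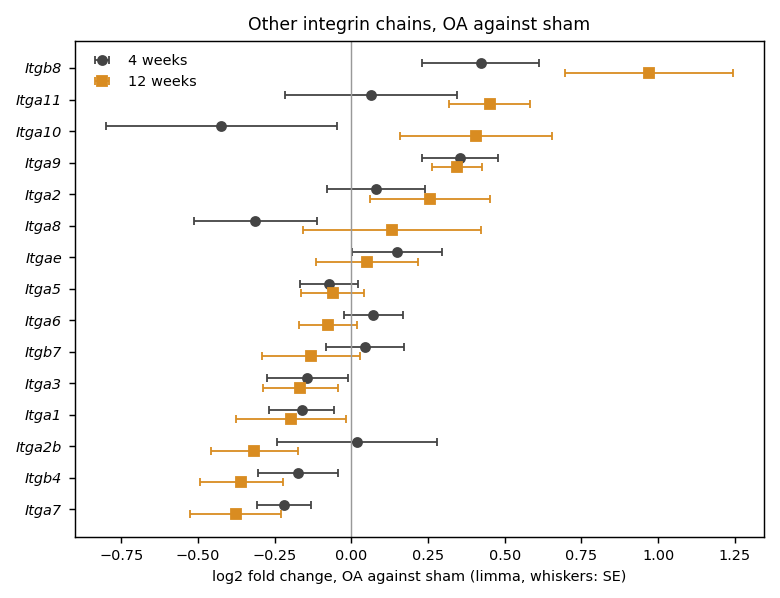
Log2 fold change of OA against sham (horizontal axis, limma, whiskers are SE) for 15 integrin chains outside the members at 4 weeks (grey circles) and 12 weeks (orange squares), ordered by the 12-week value. Itgb8 at 12 weeks has the largest value (0.97), Itga9 has similar values at both weeks (0.35 and 0.34), and none had an adjusted p under 0.05.

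The intracellular partners that switch integrins on and off, and the ligands, were read from 4 lists. Of 13 activators, 8 inhibitors and 19 linked signalling genes tested, none had an unadjusted p under 0.05 at 4-weeks. Their median log2 fold changes were 0.08, 0.03 and 0.08. Over all genes, 7.92% had an unadjusted p under 0.05 at 4-weeks and 12.4% at 12-weeks. At 12-weeks 1 activator was lower, Rasgrp2, the exchange factor that loads the integrin switch RAP1 (log2 fold change -0.26, SE 0.11, adjusted p = 0.378 in limma), and no inhibitor passed. Of the signalling genes 1 was higher and 2 lower at an unadjusted p under 0.05: Parvg, an actin-linked adaptor of blood cells (0.63, SE 0.20, adjusted p = 0.315), Zyx, a focal adhesion protein (-0.29, SE 0.08, adjusted p = 0.284) and Ptk2b, the adhesion kinase PYK2 (-0.15, SE 0.06, adjusted p = 0.377).
Of 18 ligands tested at 4-weeks, 1 was lower and none higher at an unadjusted p under 0.05, beside 7.92% of all genes. Spp1 had 3092 ± 1829 (SD, n = 5) normalized reads in OA and 8677 ± 8984 (n = 5) in sham (log2 fold change -1.22, SE 0.51, adjusted p = 0.607 in limma), with overlap. At 12-weeks 2 of 18 ligands were higher and 2 lower at an unadjusted p under 0.05, beside 12.4% of all genes. Fn1, fibronectin, the ligand of VLA-4 and of several alpha v receptors, had 42539 to 54816 normalized reads in OA and 21211 to 39946 in sham, without overlap (log2 fold change 0.60, SE 0.19, adjusted p = 0.318). Ccn2, a matricellular ligand, had a log2 fold change of 0.50 (SE 0.20, adjusted p = 0.365), and Vtn, vitronectin, the namesake ligand of the alpha v receptors, had -0.44 (SE 0.15, adjusted p = 0.332). Fn1 is made by fibroblasts and by macrophages. It is also in the monocyte marker list, whose sum at 12-weeks was 55158 to 65010 normalized reads in OA and 32040 to 52295 in sham. Most of that sum was Fn1 itself, so the sum is not a separate measure of monocytes. Other markers on the list went both ways. Ly6c had 63.3 to 69.8 normalized reads in OA and 78.2 to 94.1 in sham, and Cx3cr1 had 1620 to 2796 and 956 to 1582.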

How the data were processed

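RNA was sequenced from CD11b/c-sorted synovial cells in 18 libraries, grouped by surgery and week from the labels. The authors checked raw reads with fastp 0.20.0, aligned them to Rnor_6.0 (Ensembl 102) with STAR 2.7.6a, removed duplicates with Sambamba and counted with featureCounts 2.0.0 (strand setting not given in the sources used here). The authors deposited, per week, reads divided by DESeq2 1.24.0 size factors, a signal that is never negative. All values were whole multiples of 1 read (tolerance 0.1), so read counts were recovered from the deposited values for the alternatives. Recovered reads per library ran from 4662344 to 18080503. The deposited tables also hold the authors' own comparison (mean, log2 fold change, standard error, statistic, p-value and adjusted p-value), which was not used.

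OA and sham were compared within each week in limma 3.58.1 (R 4.3.3, trend) on log2(normalized reads + 1), for genes with a mean of at least 10, with Benjamini-Hochberg adjustment over all genes. This scale understates changes of low genes. The difference between weeks was tested on log2 CPM (TMM scaling, prior count 2). Exact permutation tests were two-sided on log2 levels (ratios on the log2 ratio), and correlations used 100000 resamples at 4-weeks and all pairings at 12-weeks. The alternatives used pseudocounts of 0.5 and 5, no filter beyond 1 read, a minimum mean of 50, TMM, edgeR 4.0.16, DESeq2 1.42.0, a replicate block, array weights and leaving out each library. Fits were tested on simulated data. The members and lists were chosen with earlier results of these data known. All members are named. From each other list up to 3 genes per week are named, those with the largest log2 fold change at an unadjusted p under 0.05, and the 5 genes most like Itgam. The labels do not name single animals as replicates but pools, so p-values measure the spread between pools.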

Additional observations from a re-analysis of the deposited data

Results flagged for a closer look

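Itga4 in sham at 4-weeks had 1 library far from the others. Sham replicate 3 had 812 normalized reads, while the other 4 sham libraries had 1483 to 1736, and the gap to the nearest made up 0.726 of the range of the group. Of 36 groups of libraries examined over the 9 members, this was the 1 marked in this way, and chance marks about 1 in 20. The library is the one with the fewest recovered reads, 4662344, and Itga4 had 350 reads in it. The same library also stood apart over all genes. It had the most genes with reads, 25919, beside 21351 to 25187 in the other 4-week libraries. A chi-square per degree of freedom compared the read counts of 2 libraries of a group. It was 24.6 to 35.0 for sham replicate 3 with each other 4-week sham library, and 6.86 to 15.3 among those. The part of depth and of other traits of this library was not tested.

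The OA effect on Itgax differed between the weeks by 1.10 (log2 CPM, 12-weeks minus 4-weeks, SE 0.52, unadjusted p = 0.0468 in limma and 0.0360 in edgeR), with an adjusted p of 0.948 in limma. The difference was positive without any single library, at 0.78 to 1.36.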

How the results depend on the processing

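Under the alternatives run, 319 of 342 values of single members kept their direction and 23 changed sign, none with an adjusted p under 0.05. At 4-weeks the Itgb2 log2 fold change was -0.03 in edgeR, -0.023 in DESeq2, -0.052 with array weights, and -0.15 in DESeq2 and -0.13 with TMM scaling without sham replicate 3, the last 2 settings chosen after seeing the data. The Itgb1 value was -0.01 in both of those (-0.0127 and -0.00993). At 12-weeks array weights gave -0.11 for Itgam and -0.016 for Itgal. Leaving out single libraries gave ranges at 4-weeks of -0.25 to 0.16 for Itgam, -0.13 to 0.21 for Itgb2 and -0.0043 to 0.088 for Itgb1, and at 12-weeks of -0.14 to 0.10 for Itgam, -0.21 to 0.028 for Itga4 and -0.0027 to 0.077 for Itgb1.

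Genes called at 4-weeks numbered 0 in limma and edgeR, 29 in DESeq2, 1 with the replicate block, 1 with array weights, 35 in DESeq2 and 1 with TMM scaling without sham replicate 3, and 0 to 1 when single libraries were left out. At 12-weeks DESeq2 called 99 genes, and leaving out single libraries gave 0 to 81, the 81 without sham replicate 3. The cause was not tested. Members with an unadjusted p under 0.05 numbered 1 to 3 at 4-weeks and 0 to 3 at 12-weeks when single libraries were left out, and 0 at 12-weeks with array weights. For the difference between weeks the number was 0 to 2. With the group means taken out, 9 of the 16 relations with Itgam had an adjusted p under 0.05, against 1. That permutation takes no account of the means removed, so its p-values can be too low. Without the 2 libraries farthest from the Itgam median, r at 4-weeks was 0.902 for Itgb2 and 0.816 for Itgax. For Itgal, Itga4 and Itgb1 it fell to 0.320, 0.226 and 0.042. At 12-weeks it was 0.926 for Itgb2 and 0.623, 0.568 and 0.502 for Itgal, Itga4 and Itgb5. Libraries with the same replicate number came from other rats. Their deviations correlated at -0.131 to 0.080 at 4-weeks and -0.026 to 0.298 at 12-weeks. So few pairs cannot exclude that libraries of 1 number were handled together. None of the 5 OA libraries at 4-weeks and 1 of 4 at 12-weeks correlated best with its own number. With the replicate block, 3 members at 4-weeks and 1 at 12-weeks had an unadjusted p under 0.05. The block lowered the SE of some members and raised that of others. At 4-weeks the SE of Itgax went from 0.41 to 0.24 (unadjusted p = 0.0101, adjusted p = 0.592 in limma). That of Itgb1 went from 0.085 to 0.097. At the lowest count behind a member, 114 reads, counting error alone is 9.37%.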
